A study of Mus musculus with 12 samples.

Results

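The cytosolic ribosomal protein genes of the mouse hippocampus were followed through treatment with an siRNA against GSK3β, with the peptide L803mts and with ketamine. A gene was a member if its deposited locus was typed as protein coding or mixed and its name was that of a small-subunit (Rps) or large-subunit (Rpl) protein, of a stalk protein (Rplp0, Rplp1, Rplp2) or Rpsa, with pseudogene names left out. The longest locus was taken for each name, and no name had more than 1 locus that met the rule. This gave 74 genes in all. The siGSK3b table listed 70 of them among 16687 loci, the L803mts table listed 72 among 17394 and the ketamine table listed 72 among 17864, and 68 genes were in all 3 tables. Rpl10a was listed only in the L803mts table and Rpl35a only in the siGSK3b table. Rps27a, Rps29 and Rps4y2 were missing from the siGSK3b table, and Rpl4 from the L803mts table, where it shared a joint locus with Snapc5.

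Poly(A) RNA of the hippocampus of C57BL/6 mice was sequenced in strand-specific libraries, 3 per group. The siGSK3b group received 10 µg of siRNA and the L803mts group 60 µg of L803mts, a peptide inhibitor of the kinase GSK3, both through the nose at 5 µL per nostril on alternate days over 3 days. The ketamine group received an intraperitoneal dose of 10 mg/kg and was taken at 24 h. Control mice received vehicle through the nose on the schedule of the first 2 groups, so for ketamine the drug and the route cannot be told apart. The labels give no age or sex and do not say that libraries came from separate mice, so the p-values measure the spread between libraries, which may be technical. The same 3 control libraries stand in all 3 tables, each normalised on its own.

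The ribosome reads mRNA with its small subunit and joins amino acids with its large subunit, and each subunit holds many proteins, nearly all encoded by a single active gene with many silent processed copies. Many of the mRNAs begin with an unbroken run of pyrimidines, the terminal oligopyrimidine (TOP) motif, through which mTORC1 signalling controls their translation. In neurons, ribosomes and some of these mRNAs are also found in dendrites and axons.

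The start regions of genes on which the results below turn are shown because the TOP motif lies there. RefSeq promoters of GRCm38.p6 matched 54 of the 74 genes; 20 had no entry, Rplp1, Rpl3 and Rpl8 among them. Each line gives 15 bases before and 15 bases from an annotated start, read 5′ to 3′ on the gene's strand. Capitals mark a run of at least 6 C or T that covers the first transcribed base.
Rplp2, stalk protein, chr7:141447636-141447665, plus strand: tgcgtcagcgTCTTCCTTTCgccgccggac
Rps24, the most abundant member, chr14:24490663-24490692, plus strand: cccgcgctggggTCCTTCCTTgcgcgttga
Rpl14, chr9:120571502-120571531, plus strand: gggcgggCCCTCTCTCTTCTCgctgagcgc
Rpl35, chr2:39005117-39005146, minus strand: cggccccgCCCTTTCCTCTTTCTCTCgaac
Rps27, chr3:90213634-90213663, minus strand: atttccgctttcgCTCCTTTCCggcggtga
Rpl7a, chr2:26910792-26910821, plus strand: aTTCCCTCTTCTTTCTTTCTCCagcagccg
Rpsa, chr9:120127751-120127780, plus strand: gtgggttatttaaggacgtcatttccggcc
Rpl26, chr11:68901551-68901580, plus strand: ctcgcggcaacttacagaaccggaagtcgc
Rpl39, chrX:37085208-37085237, minus strand: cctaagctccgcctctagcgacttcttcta
Rpl22l1, chr3:28805493-28805522, plus strand: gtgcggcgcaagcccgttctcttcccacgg
Rplp2, Rps24, Rpl14, Rpl35, Rps27 and Rpl7a have such a run at the start shown, and Rpsa, Rpl26, Rpl39 and Rpl22l1 do not. Rps24 has another annotated start, with the window chr14:24490738-24490767, that has no such run.

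Over the 54 genes a pyrimidine run covered an annotated start in 17 (31.5%), against 2293 of all 27025 genes of the table (8.48%). The letters CCGGAAG, the core bound by ETS-family factors, were found on either strand within 250 bases before to 50 bases from a start in 23 of the 54 genes (42.6%), against 9.93% of all genes. TATAAA was found in 7 members (13.0%), against 15.7% of all genes, and GATGGCGG, letters of the YY1 motif, in 3 (5.56%), against 1.97%. These shares describe the annotated starts.

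Several facts of the libraries stand beside every comparison. Gsk3b, the target of the siRNA, was at 18.4, 19.3 and 18.9 FPKM (fragments per unit of transcript length and of library size, a scale that keeps no read depth) in the libraries labelled siGSK3b, against 18.0, 17.3 and 17.8 FPKM in control libraries (log2 difference 0.09 ± 0.09 SE, limma adjusted p = 0.938). Hippocampal markers were present: 8 of the 9 fixed genes were listed in each table, Neurod6 and Prox1 among them, and none stayed under 0.5 FPKM in every library. They summed to 980, 1068 and 1075 FPKM in L803mts libraries, against 1205, 1182 and 1342 FPKM in control libraries, lower without overlap. The groups overlapped in the other tables. In the siGSK3b table the same control libraries summed to only 150, 160 and 171 FPKM, so the sum depends on the table. Of the 8 markers, 6 had a log2 difference below 0 in L803mts, 6 in siGSK3b and 5 in ketamine libraries. Their median log2 differences were −0.17, −0.23 and −0.14. The 14 choroid plexus markers summed to 3492 to 5188 FPKM in siGSK3b libraries, 1527 to 2539 in L803mts libraries and 273 to 2261 in ketamine libraries. In control replicates 1, 2 and 3 they summed to 3825, 232 and 40.5 FPKM in the siGSK3b table. The same libraries were at 2411, 156 and 27.9 FPKM in the L803mts table and 2420, 156 and 29.5 FPKM in the ketamine table. Control replicate 1 thus lay within the range of the siGSK3b and L803mts libraries, with control replicates 2 and 3 far below. Ketamine replicates 1 and 2 were at 2261 and 1860 FPKM, nearer to control replicate 1. Ketamine replicate 3, at 273 FPKM, was nearer to control replicate 2. Control replicate 1 was the lowest of the 3 control libraries for 40 of 70 members in the siGSK3b table. It was so for 39 of 72 in the L803mts table and 34 of 72 in the ketamine table. The same share over all tested loci was not computed, so these counts are not read as particular to the members. The 6 oligodendrocyte markers summed to 387 to 465 FPKM in ketamine libraries, against 553 to 561 in control libraries, with no overlap, and to 1067 to 1236 FPKM in siGSK3b libraries, against 1204 to 1398 in control libraries. The 9 meningeal markers summed to 85.7 to 99.7 FPKM in L803mts libraries, against 61.3 to 82.9 in control libraries. The part of these tissue markers in the results on ribosomal protein genes was not tested, and in bulk tissue fewer cells of a type and less RNA per cell cannot be told apart.

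Control levels of the ribosomal protein genes spanned a wide range. Rps24, a small-subunit protein, was the highest in every table, at 1129 ± 53.5 FPKM in control libraries of the siGSK3b table (SD, n = 3). It was followed there by Rpl4 (522 ± 36.1 FPKM) and Rpl3 (402 ± 141 FPKM), both of the core of the large subunit, then Rps26 (351 ± 66.6 FPKM) and Rpl41, the smallest ribosomal protein (313 ± 95.7 FPKM). Rpl3, Rps26 and Rpl41 did not differ in level beyond their spread. Among the lowest, in the same libraries, were Rpl23a (1.84 ± 0.33 FPKM), Rpl36 (1.49 ± 0.40), Rps16 (0.78 ± 0.26) and Rpl28 (0.62 ± 0.35). Every library of Rpl23a lay above every library of Rps16 and Rpl28, while Rps16 and Rpl28 did not differ beyond their spread. The median member was at 21.7, 19.3 and 18.0 FPKM in control libraries of the siGSK3b, L803mts and ketamine tables, at percentile 69.8, 67.9 and 67.4 of the tested loci. The highest and lowest members were 1811-fold, 1697-fold and 2843-fold apart.

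The level of a gene also depended on the table, although the control libraries were the same. Of the 68 genes in all 3 tables, 43 had control means within 1.5-fold of each other, 25 were 1.5-fold or more apart, 15 were 2-fold or more apart and 4 were 10-fold or more apart. Rpl13a averaged 161 FPKM in control libraries of the siGSK3b table, 66.0 in the L803mts table and 0.40 in the ketamine table, and Rpl19 averaged 22.4, 22.1 and 1.14 FPKM. For these genes, and for Rpl24 and Rps2, the loci taken from the 3 tables do not all overlap. For 63 of the 68 genes they do, and of these Rpl11 still averaged 10.9 FPKM in the siGSK3b table, 114 in the L803mts table and 10.4 in the ketamine table. Rplp2, one of the stalk proteins, averaged 72.8, 98.1 and 9.38 FPKM. Comparisons were therefore made only within a table.

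**Figure D1:**
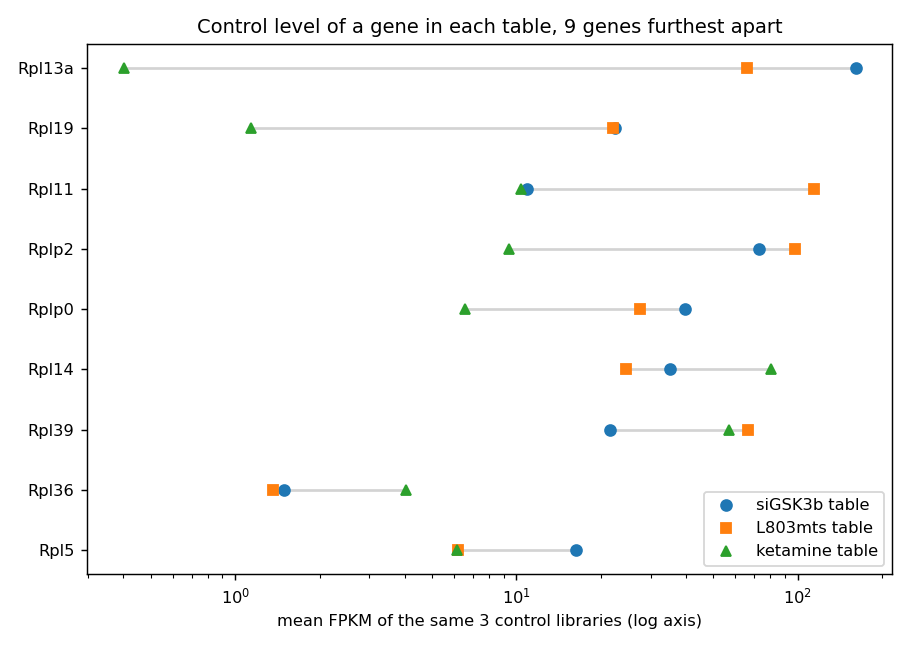
Mean FPKM of the same 3 control libraries (log axis) for the 9 ribosomal protein genes whose means differ most between tables; each marker is 1 table. Rpl13a spans 161 to 0.40 FPKM, and Rpl11 lies at 10.9 and 10.4 FPKM in the siGSK3b and ketamine tables and at 114 FPKM in the L803mts table.

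Loci named as pseudogenes held signal of their own. The siGSK3b table lists 26 loci named "-ps" after 21 member names. For 11 of the 20 parent genes also listed, the pseudogene loci together had the higher control mean, as did 15 of 22 in the L803mts table and 14 of 23 in the ketamine table. Rpl38 was at 3.18 FPKM in control libraries of the siGSK3b table, and the locus Rpl38-ps2 at 290 FPKM. Rps16 was at 0.78 FPKM and Rps16-ps2 at 26.7 FPKM, and Rpl28 at 0.62 FPKM and Rpl28-ps1 at 24.9 FPKM, so the lowest members had a far higher processed copy. Rps24, by contrast, was at 1129 FPKM and Rps24-ps2 at 54.6 FPKM. Reads of near-identical copies can be split between such loci, so the absolute levels of these genes are uncertain.

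**Figure D2:**
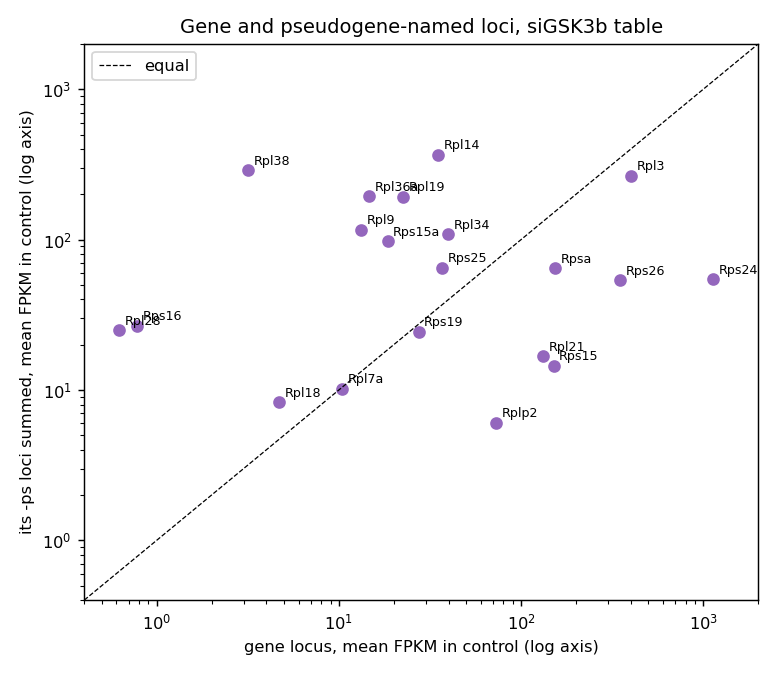
Control mean of each parent gene's locus (horizontal) and of its "-ps" loci summed (vertical), in FPKM on log axes, siGSK3b table, 1 point per parent gene. Points above the dashed line, 11 of 20, are genes whose pseudogene loci hold more signal than the gene's own locus.

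The locus limits add to this. Rpl7l1 and Rps3 are listed by loci of 275 and 657 bases in the siGSK3b table, against annotated gene lengths of 8766 and 5843 bases in GENCODE for GRCm38. The Rpl39 locus is 2823 bases long in the siGSK3b table and 73876 bases long in the ketamine table. In the siGSK3b table the loci of Rps21 and Rpl5 are 6.66 and 24.7 times as long as the annotated gene. Such long loci can hold reads of neighbours. A locus shorter than 0.5 of the annotated gene was found for 8 members in the siGSK3b table, 11 in the L803mts table and 12 in the ketamine table. A locus over 2 times as long as the annotated gene was found for 6, 9 and 9 members.

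In the comparison of siGSK3b with control libraries, no ribosomal protein gene was higher by either test, and 2 stalk protein genes were lower by the authors' own test. Rplp1 and Rplp2, the acidic stalk proteins that recruit translation factors to the large subunit, were called in the authors' deposited table at an FDR of at most 0.05, out of 70 members tested (background 0.508% of 16351 tested loci called, 0.226% called lower). By limma on log2(FPKM + 1) with Benjamini-Hochberg adjustment over all tested loci, 0 of 70 members were called (background 0.00612%). At an unadjusted limma p under 0.05 there were 0 higher and 7 lower members, where 2.99% of all tested loci were higher and 2.84% lower. The authors' deposited table had an unadjusted p under 0.05 for 0 higher and 11 lower members, where 2.48% of all tested loci were higher and 3.09% lower.

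Rplp1 (chr9:61760523-61762343 as deposited, NCBIM37) was at 19.2, 22.0 and 15.7 FPKM in siGSK3b libraries, against 17.7, 92.6 and 29.7 FPKM in control libraries. Control replicate 2 stands well above the other 5 libraries, and the groups overlap. The log2 fold change was −1.30 in the authors' deposited table (FDR 0.0126). The limma difference was −0.93 ± 0.51 (SE, adjusted p = 0.892) and −0.27 without control replicate 2.

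Rplp2 (chr7:148633591-148637169) was at 29.0, 56.1 and 31.7 FPKM in siGSK3b libraries, against 31.5, 117 and 69.5 FPKM in control libraries, again highest in control replicate 2. In the authors' deposited table its log2 fold change was −0.90 (FDR 0.0126). The limma difference was −0.76 ± 0.45 (SE, adjusted p = 0.900), and −0.32 without control replicate 2. Rplp0, the stalk base that anchors both, was at 36.5, 35.6 and 27.5 FPKM in siGSK3b libraries and 35.1, 40.0 and 43.8 FPKM in control libraries (log2 difference −0.26 ± 0.13 SE, limma adjusted p = 0.887), with overlap.

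**Figure D3:**
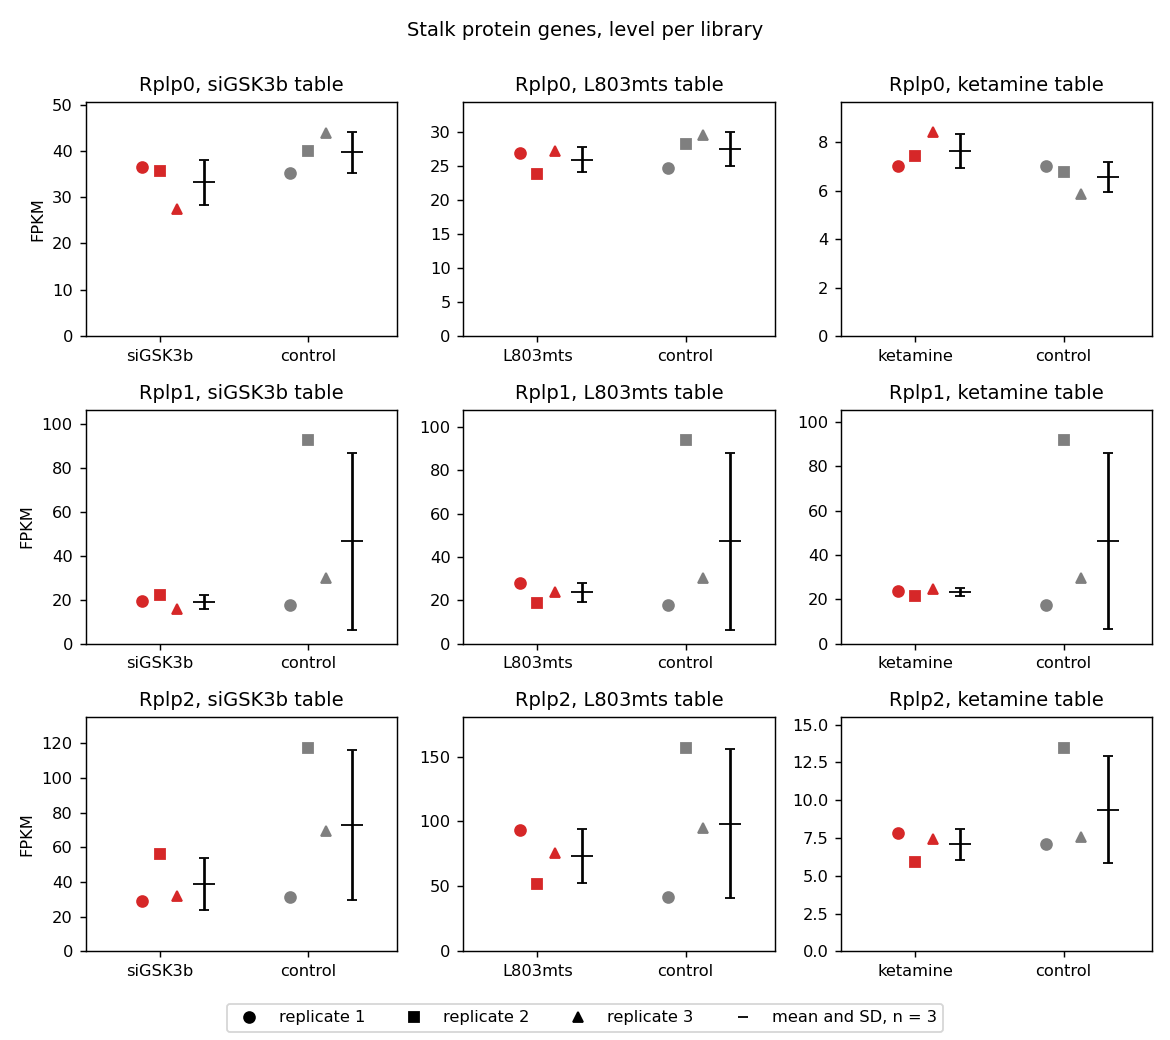
FPKM of the stalk protein genes Rplp0, Rplp1 and Rplp2 (rows) in each table (columns), treated libraries in red on the left and control libraries in grey on the right; marker shape is the replicate number and bars are mean and SD (n = 3). Control replicate 2 is the highest library for Rplp1 and Rplp2 in all 3 tables, at 92.6 FPKM for Rplp1 in the siGSK3b table.

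Of all members in this comparison, stalk proteins included, Rpsa had the smallest limma p. Rpsa (chr9:120036893-120040283), a small-subunit protein also known as the laminin receptor, was at 130, 118 and 108 FPKM in siGSK3b libraries, against 142, 164 and 153 FPKM in control libraries. The groups did not overlap, and the log2 difference of −0.36 ± 0.10 (SE) had an unadjusted p of 0.00606 and a limma adjusted p of 0.739. Groups did not overlap for 0 higher and 8 lower members (among them Rpl18, Rpl19, Rpl26, Rpl32, Rpl35, Rpl7a and Rpsa, named after their values were seen), where 5.72% of tested loci were higher and 4.84% lower without overlap.

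Rpl35, beside the exit of the peptide tunnel, was at 15.5, 18.7 and 14.6 FPKM in siGSK3b libraries, against 18.7, 23.9 and 23.9 FPKM in control libraries, where the highest siGSK3b and the lowest control library touch. Rpl18, a large-subunit protein, was at 2.36, 2.69 and 3.22 FPKM in siGSK3b libraries, against 3.96, 6.17 and 3.92 in control libraries (log2 difference −0.58 ± 0.20 SE, limma adjusted p = 0.848). Rpl26, which in human cells also binds the p53 mRNA, was at 180, 145 and 183 FPKM in siGSK3b libraries and 196, 206 and 200 FPKM in control libraries. These 3 genes have low siGSK3b values in every replicate and passed no adjusted threshold.

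Rpl8, of the large subunit, was at 75.1, 88.9 and 64.1 FPKM in siGSK3b libraries, against 79.0, 109 and 127 FPKM in control libraries. Its locus in the siGSK3b table is 26579 bases long, 11.9 times the annotated gene. The FDR of Rpl8 in the authors' deposited table was 0.0557, and control replicate 1 lay within the siGSK3b range. Rps15, chosen after its values were seen, showed a like order, at 115, 133 and 99.0 FPKM in siGSK3b libraries and 110, 162 and 181 FPKM in control libraries. Rpl23a completed the lowest members by rule, at 1.67, 0.82 and 0.90 FPKM in siGSK3b libraries and 2.21, 1.57 and 1.72 FPKM in control libraries.

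The members with the most positive differences were Rps15a (log2 difference 0.21 ± 0.17 SE), Rps12 (0.19 ± 0.17), Rpl36a (0.17 ± 0.25), Rpl39 (0.17 ± 0.13) and Rps3 (0.16 ± 0.16), each with overlapping groups. Rps24 was at 1118, 951 and 1107 FPKM in siGSK3b libraries and 1095, 1102 and 1191 FPKM in control libraries (log2 difference −0.10 ± 0.10 SE). The paralogs Rpl22l1, Rpl7l1 and Rps27l, which are close copies of ribosomal protein genes, had differences of 0.06 ± 0.15, −0.06 ± 0.18 and 0.05 ± 0.31 (SE). The limma 95% interval lay wholly between −1 and 1 for 66 of the 70 members, with a median half-width of 0.36.

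Over the 70 members, 46 had a log2 difference below 0 (65.7%, against 48.1% of all tested loci). Their median was −0.096, against 0.0069 over all tested loci, and it was −0.11 with each library centred on its median and −0.099 after quantile normalisation. The large subunit without stalk and paralogs had 26 of 39 below 0 and the small subunit 16 of 25. The count of 7 lower members at an unadjusted limma p under 0.05 became 14 without control replicate 1, 2 without control replicate 2, 3 without siGSK3b replicate 3, and 3 lower with 1 higher without control replicate 3. The share of all tested loci at this threshold was not computed for these fits. By adjusted p, limma called 36 of 16351 tested loci without control replicate 1, against 1 in the full fit, and 0 members in either. The median of the members was −0.063 without control replicate 2. Control replicate 1 had the high choroid plexus sum given above and was the lowest control library for 40 of the 70 members. That count has no share over all tested loci beside it, and a link between it and the marker sum was not tested.

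**Figure D4:**
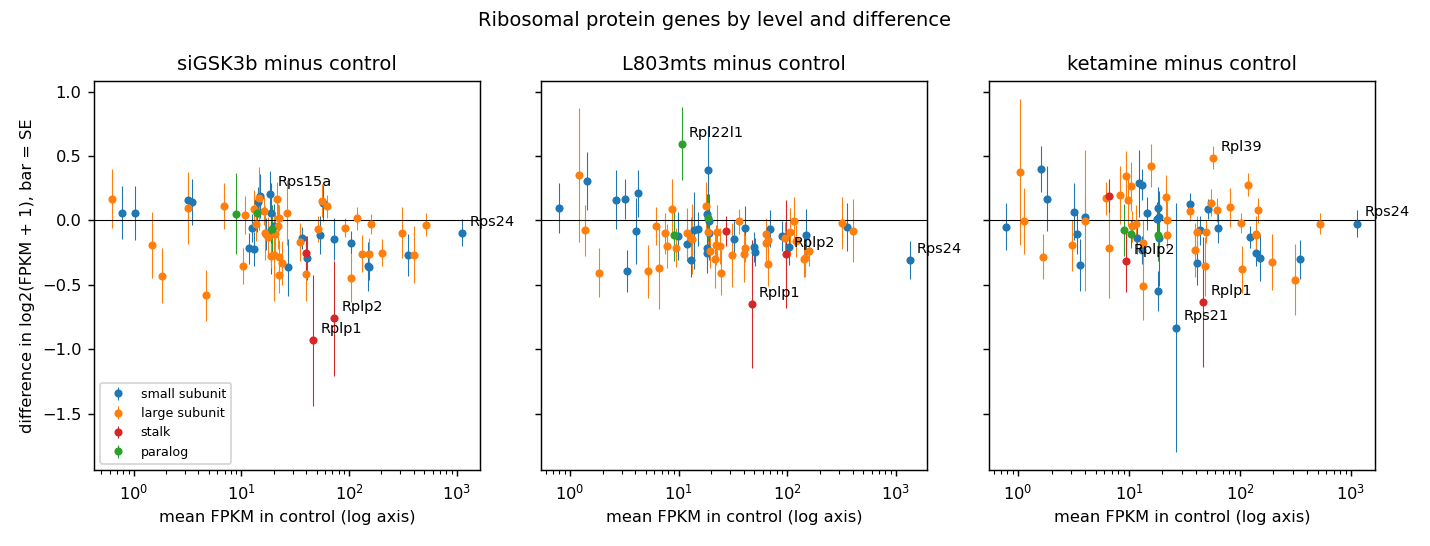
Difference in log2(FPKM + 1), treated minus control, of each tested ribosomal protein gene (vertical, bars are SE) against its mean FPKM in control libraries (horizontal, log axis), coloured by role, 1 panel per comparison. Most points lie within 0.5 of 0, and Rplp1 and Rplp2 lie lowest with wide bars in the siGSK3b panel.

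In the comparison of L803mts with control libraries most members were slightly lower, and again only a stalk protein gene passed the authors' test. Rplp1 was called lower in the authors' deposited table at an FDR of at most 0.05, as the only one of 72 tested members (background 0.65% of 17074 tested loci, 0.0761% called lower). Limma called 0 of 72 (background 0%), with 0 higher and 4 lower at an unadjusted p under 0.05, where 3.61% of all tested loci were higher and 2.57% lower. The authors' deposited table had an unadjusted p under 0.05 for 1 higher and 4 lower members, where 5.03% of all tested loci were higher and 2.14% lower.

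Rplp1 was at 28.0, 19.0 and 23.9 FPKM in L803mts libraries, against 17.8, 94.0 and 30.2 FPKM in control libraries. The L803mts values lie between the lowest and the middle control library, below control replicates 2 and 3. The log2 fold change was −1.0 in the authors' deposited table (FDR 0.0119). By limma the difference was −0.65 ± 0.50 (SE, adjusted p = 0.765), and it was 0.0059 without control replicate 2. Rplp2 was at 93.0, 51.5 and 75.9 FPKM in L803mts libraries and 42.2, 157 and 95.2 FPKM in control libraries, with full overlap. Rplp0 was at 26.8, 23.7 and 27.1 FPKM in L803mts libraries and 24.7, 28.1 and 29.5 FPKM in control libraries.

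The largest positive difference belonged to Rpl22l1, the paralog of the RNA-binding large-subunit protein Rpl22. Rpl22l1 was at 9.53, 21.0 and 22.7 FPKM in L803mts libraries, against 9.99, 11.7 and 10.4 FPKM in control libraries. L803mts replicates 2 and 3 lie above every control library and replicate 1 lies below every one. The log2 difference of 0.59 ± 0.28 (SE) had a limma adjusted p of 0.757, and the FDR in the authors' deposited table was 0.217. Rpl22 itself was at 35.2, 36.7 and 32.7 FPKM in L803mts libraries and 39.8, 38.5 and 43.8 FPKM in control libraries, lower without overlap (log2 difference −0.22 ± 0.11 SE).

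Rpl14, of the large subunit, was at 17.2, 21.1 and 16.0 FPKM in L803mts libraries, against 21.3, 30.9 and 21.4 FPKM in control libraries (log2 difference −0.41 ± 0.17 SE, limma adjusted p = 0.757). Rps27, a zinc-binding small-subunit protein, was at 2.15, 2.76 and 2.14 FPKM in L803mts libraries, against 3.5, 3.45 and 3.21 FPKM in control libraries (log2 difference −0.39 ± 0.17 SE, limma adjusted p = 0.757). Rps3a was at 45.7, 44.3 and 39.0 FPKM in L803mts libraries and 53.3, 51.5 and 48.6 FPKM in control libraries. In all 3 genes each L803mts library lies below each control library.

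Such lower, non-overlapping groups were seen for 11 of 72 members (background 6.67%): Rpl14, Rpl18, Rpl22, Rpl23a, Rpl26, Rps20, Rps24, Rps27, Rps3a, Rps4x and Rps7, named after their values were seen. Only Rps3, a small-subunit protein at the mRNA entry, was higher without overlap (background 5.86%), at 3.76, 3.97 and 3.54 FPKM in L803mts libraries and 2.95, 3.38 and 3.39 FPKM in control libraries. For Rps3 the group values of the authors' deposited table are 78.8 FPKM in L803mts and 88.3 FPKM in control. They are far from these library values and run the other way. The log2 fold change deposited beside them, 0.21, has the direction of the library values. The deposited columns disagree, so the direction of Rps3 is uncertain. Rps24 was at 1270, 1087 and 930 FPKM in L803mts libraries, against 1297, 1313 and 1432 FPKM in control libraries. Its log2 difference was −0.31 ± 0.15 (SE, limma adjusted p = 0.757). Rpl18 and Rpl23a had differences of −0.40 ± 0.21 and −0.41 ± 0.19 (SE), and Rps2, Rpl28, Rps29 and Rps27a positive ones of 0.39 ± 0.34, 0.35 ± 0.52, 0.31 ± 0.22 and 0.21 ± 0.18 (SE), with overlap. The Rps2 locus of this table is 225 bases long, 0.059 of the annotated gene, and Rpl28 is listed at 0 in control replicate 1.

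Over the 72 members, 60 had a log2 difference below 0 (83.3%, against 54.1% of all tested loci), with a median of −0.12, against −0.020 over all tested loci. The median was −0.11 with each library centred on its median and −0.12 after quantile normalisation. The large subunit had 35 of 38 below 0 and the small subunit, with Rps4y2 counted in it, 21 of 28. L803mts replicate 3 was the lowest of the 6 libraries for 29 of the 72 members, and replicates 1 and 2 for 5 and 14. The same shares over all tested loci were not computed. The median was −0.080 without L803mts replicate 3 and −0.19 without control replicate 1. The 4 lower members at an unadjusted p under 0.05 became 2 under either of these scalings. They became 0 without L803mts replicate 3, 1 without control replicate 2, 2 without control replicate 3, 5 without L803mts replicate 1 or control replicate 1 and 6 without L803mts replicate 2. The share of all tested loci at this threshold was not computed for these fits. By adjusted p, limma called 36 of 17074 tested loci without control replicate 1, against 0 in the full fit, and 0 members in either. The hippocampal marker sum of this table, which depends on the table as given above, was lower in L803mts libraries, as were most members. Its part in this result was not tested. The limma 95% interval lay between −1 and 1 for 66 of 72 members, with a median half-width of 0.40.

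**Figure D5:**
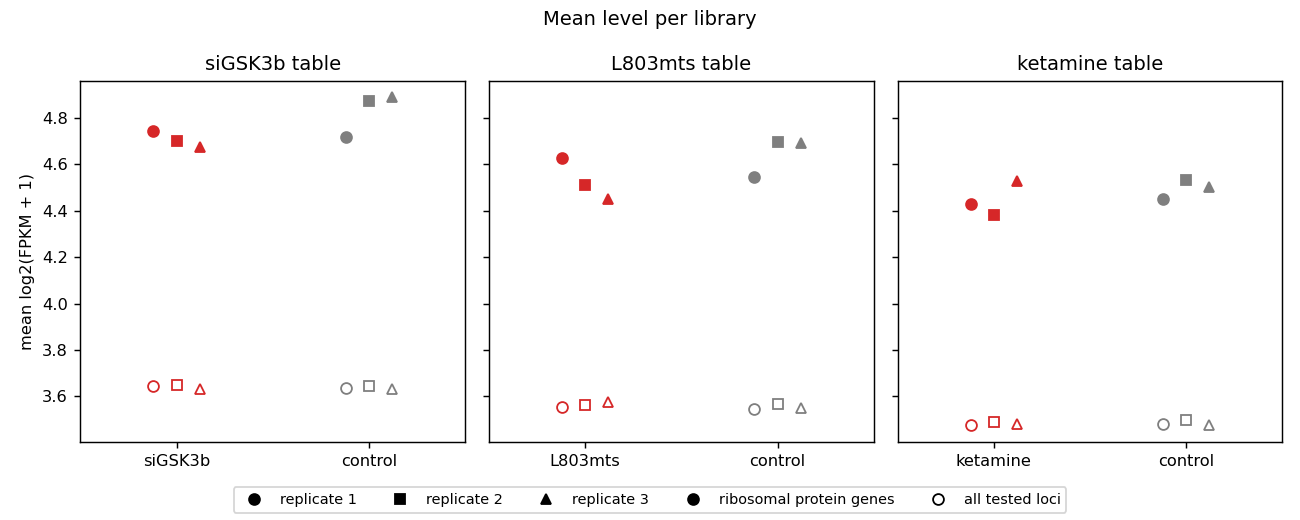
Mean log2(FPKM + 1) per library over all listed ribosomal protein genes (filled) and over all tested loci (open). The filled means of the ketamine panel include Rpl13a, which was not tested. Treated libraries are in red on the left and control libraries in grey on the right of each panel, and marker shape is the replicate number. In the siGSK3b panel the ribosomal means run from 4.68 to 4.89 while the means of all loci stay nearly level, and control replicate 1 is the lowest control library in each panel.

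The mean log2(FPKM + 1) of the members was 4.63, 4.51 and 4.45 in L803mts libraries, against 4.55, 4.70 and 4.69 in control libraries. In the siGSK3b table it was 4.75, 4.70 and 4.68 in siGSK3b libraries and 4.72, 4.87 and 4.89 in control libraries. In the ketamine table it was 4.43, 4.38 and 4.53 in ketamine libraries and 4.45, 4.53 and 4.50 in control libraries. Treated and control libraries overlapped in each table, with control replicate 1 among the treated libraries. Means are not set across tables, because the loci and their normalisation differ.

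In the comparison of ketamine with control libraries the differences of the members lay on both sides of 0. Rplp1 was called lower in the authors' deposited table at an FDR of at most 0.05, as the only one of 71 tested members (background 0.439% of 17545 tested loci, 0.131% called lower). Limma called 0 of 71 (background 0.0114%), with 3 higher and 2 lower at an unadjusted p under 0.05, where 2.98% of all tested loci were higher and 3.16% lower. The authors' deposited table had an unadjusted p under 0.05 for 2 higher and 9 lower members, where 2.66% of all tested loci were higher and 3.31% lower.

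Rplp1 was at 23.6, 21.4 and 24.7 FPKM in ketamine libraries, against 17.6, 91.8 and 29.7 FPKM in control libraries. The ketamine libraries are tightly grouped within the control range. Its log2 fold change was −1.0 in the authors' deposited table (FDR 0.0157). The limma difference was −0.63 ± 0.51 (SE, adjusted p = 0.898), and it was 0.019 without control replicate 2. Rplp2 was at 7.86, 5.92 and 7.46 FPKM in ketamine libraries and 7.11, 13.5 and 7.57 FPKM in control libraries. Rplp0 was at 7.04, 7.43 and 8.41 FPKM in ketamine libraries and 7.03, 6.76 and 5.85 FPKM in control libraries, higher by a bare margin (log2 difference 0.19 ± 0.13 SE). Its locus in this table is 1673 bases long, 0.39 of the annotated gene. The control mean of Rplp0 was 6.55 FPKM here, against 39.7 FPKM in the siGSK3b table.

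Rpl39, a very small protein of the peptide exit tunnel, had the smallest limma p of any member in the 3 comparisons. Rpl39 was at 84.5, 79.4 and 77.5 FPKM in ketamine libraries, against 55.1, 63.5 and 53.2 FPKM in control libraries, with a clear gap between the groups. Its log2 difference was 0.49 ± 0.09 (SE, unadjusted p = 0.000771, limma adjusted p = 0.488), and the FDR in the authors' deposited table was 0.282. Leaving out 1 library at a time gave 0.44 to 0.56. This value belongs to the long Rpl39 locus of the ketamine table, chrX:34551358-34625234 on NCBIM37. In the siGSK3b table Rpl39 was at 24.8, 21.2 and 27.1 FPKM in siGSK3b libraries and 19.2, 24.5 and 21.0 FPKM in control libraries, and in the L803mts table at 47.5, 69.8 and 43.4 FPKM in L803mts libraries and 65.9, 73.3 and 60.8 FPKM in control libraries.

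Rpl23, on the face of the large subunit that meets the small one and known in human cells as a binder of MDM2, was at 138, 137 and 158 FPKM in ketamine libraries, against 128, 110 and 120 FPKM in control libraries (log2 difference 0.28 ± 0.09 SE, limma adjusted p = 0.739). Rpl27 was at 23.1, 21.4 and 18.9 FPKM in ketamine libraries, against 16.4, 18.7 and 12 FPKM in control libraries (log2 difference 0.43 ± 0.17 SE, limma adjusted p = 0.793). Both were higher without overlap, Rpl27 by a bare margin. Groups did not overlap for 8 higher members (background 5.28%), among them Rpl23, Rpl27, Rpl39, Rpl5, Rplp0, Rps25 and Rps29, named after their values were seen.

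Rps19, the small-subunit protein mutated in Diamond-Blackfan anemia in humans, was at 12.3, 10.0 and 13.7 FPKM in ketamine libraries, against 16.9, 15.9 and 21.4 FPKM in control libraries. Every ketamine library lay below every control library, and the log2 difference was −0.55 ± 0.16 (SE, unadjusted p = 0.00843, limma adjusted p = 0.692). The loci named Rps19-ps1, Rps19-ps2 and Rps19-ps3 together stood at 25.7 FPKM in control libraries, above Rps19 itself at 18.1 FPKM. Together they were at 35.9, 50.1 and 42.3 FPKM in ketamine libraries, against 29.1, 25.6 and 22.5 FPKM in control libraries, higher without overlap and so opposite in direction to Rps19. Whether reads were split differently between these loci was not tested. Rpsa was at 130, 107 and 117 FPKM in ketamine libraries, against 130, 150 and 141 FPKM in control libraries, where the highest ketamine and the lowest control library nearly touch (log2 difference −0.25 ± 0.10 SE, limma adjusted p = 0.791). Lower groups without overlap were counted for 4 members, Rps19, Rps20 and Rpsa among them (background 6.19%).

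The lowest fitted difference, of Rps21, rested on unlike libraries. Rps21 was at 5.26, 3.82 and 50.4 FPKM in ketamine libraries and 56.2, 15.1 and 8.49 FPKM in control libraries (log2 difference −0.83 ± 0.97 SE). Ketamine replicate 3 and control replicate 1 are high and the other 4 libraries low. Rpl31 had a difference of −0.51 ± 0.26 and Rpl41 of −0.46 ± 0.28 (SE), with overlap. Rps29, Rpl28 and Rpl17 had positive differences of 0.40 ± 0.18, 0.38 ± 0.57 and 0.34 ± 0.20 (SE). Rpl13a was listed at under 1 FPKM in every library of this table and was not tested.

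Over the 71 tested members, 42 had a log2 difference below 0 (59.2%, against 53.1% of all tested loci), with a median of −0.047, against −0.012 over all tested loci. The median stayed below 0 with each library centred on its median (−0.032) and after quantile normalisation (−0.062). It was −0.085 without ketamine replicate 3, −0.021 without ketamine replicate 1 and −0.027 without control replicate 3. The 3 higher and 2 lower members at an unadjusted p under 0.05 became 5 higher and 11 lower without control replicate 1, 3 and 4 without ketamine replicate 1, 3 and 1 without ketamine replicate 2, 3 and 1 without control replicate 3, and 4 and 1 without the intensity trend. The share of all tested loci at this threshold was not computed for these fits. By adjusted p, limma called 5 of 17545 tested loci without control replicate 1, against 2 in the full fit, and 0 members in either. The limma 95% interval lay between −1 and 1 for 64 of 71 members, with a median half-width of 0.38.

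The 3 comparisons share their control libraries, so a low or high control value enters all of them. For Rpsa the log2 differences were −0.36 ± 0.10 in siGSK3b, −0.12 ± 0.11 in L803mts and −0.25 ± 0.10 in ketamine libraries (SE), each against control. For Rplp1 they were −0.93, −0.65 and −0.63, and −0.27, 0.0059 and 0.019 without control replicate 2. Rpl39 had differences of 0.17 ± 0.13, −0.34 ± 0.18 and 0.49 ± 0.09 (SE), and Rpl22l1 of 0.06 ± 0.15, 0.59 ± 0.28 and −0.10 ± 0.11 (SE). Whether the treatments differ from one another was not tested, since their libraries were not normalised together.

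Among genes that work with the cytosolic ribosome no gene was called. Of 18 translation factors and other mRNAs, most of them known for a TOP motif, 0 were called by either test in any comparison, and their median log2 differences were −0.015, −0.011 and −0.025 in siGSK3b, L803mts and ketamine libraries, each against control. Eef2, the factor that moves the ribosome along the mRNA, was at 135, 145 and 106 FPKM in siGSK3b libraries and 131, 150 and 171 FPKM in control libraries, with overlap. At an unadjusted limma p under 0.05 there were 0 higher and 1 lower of the 18 in siGSK3b, 0 and 1 in L803mts, and 1 and 1 in ketamine libraries. Of 25 ribosome biogenesis genes 0 were called by either test, with medians of −0.043, −0.017 and −0.076. At an unadjusted limma p under 0.05, 2 of these were higher and 1 lower in siGSK3b libraries, 0 and 1 in L803mts, and 1 and 0 in ketamine libraries. Of the ribosomal proteins looked up outside the name rule, Gnb2l1, the scaffold RACK1, and Rpl36al were listed, and neither was called.

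The mitochondrial ribosome, a separate particle with its own proteins, had median log2 differences of −0.015 over 66 genes in siGSK3b, −0.097 over 66 genes in L803mts and −0.086 over 65 genes in ketamine libraries. The nuclear-encoded respiratory chain had medians of −0.029, −0.097 and −0.12 over 69, 70 and 71 genes. In L803mts libraries 49 of 66 mitochondrial ribosome genes and 54 of 70 respiratory chain genes were below 0, as were 60 of 72 cytosolic ribosomal protein genes. The authors' deposited table called Mrpl27 and Mrpl52 lower in ketamine libraries, and Ndufa12, of respiratory complex I, lower in siGSK3b and in ketamine libraries, while limma called 0 genes of either list. Ndufa12 was at 42.8, 50.5 and 37.5 FPKM in siGSK3b libraries, against 26.2, 288 and 136 FPKM in control libraries, with its highest value in control replicate 2, where Rplp1 and Rplp2 also had theirs.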

How the data were processed

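The submitters' processing notes name TopHat2 2.0.9 and, without a version, Cufflinks and Cuffdiff; the builds GRCh37 and NCBIM37 are named with no role. The largest chromosome 7 coordinate, 152125580, lies beyond the last GRCm38 gene end, 145324086, so locus coordinates are given on NCBIM37, without exon or UTR annotation. Per the file headers, each deposited table holds FPKM by library and by group, together with the log2 fold change, p-value and FDR of every locus, all computed by the authors within that table. Depth cannot be recovered from FPKM, so no counting interval is given. The deposited group FPKM was more than 1% off the average of the libraries for 4, 2 and 3 members (siGSK3b, L803mts, ketamine) and was not used; the gap is widest for Rps3, with a deposited control group FPKM of 87.1 in the ketamine table, against a library mean of 3.20.

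Loci with a deposited p-value below 1 (16351, 17074 and 17545) were tested with limma 3.58.1 (R 4.3.3, intensity trend) on log2(FPKM + 1), 3 treated against 3 control libraries of 1 table, with Benjamini-Hochberg adjustment and a threshold of 0.05. This scale understates changes of low genes. The authors' FDR of at most 0.05 is counted beside it. With 3 against 3 libraries an exact permutation p cannot go below 0.1, so none was computed. The scripts were tested on simulated data.

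Members and gene lists were chosen with earlier results of these data known. Named genes are those called, the 5 highest and 5 lowest differences at a mean of at least 1 FPKM, the 5 highest and 5 lowest control levels, stalk proteins, Rpsa, Rpl41 and paralogs. Rps6, Rpl3l, Rpl10l and Rpl39l had no locus that met the rule. Nor did Rpl10, Rpl13, Rpl29, Rps10, Rps13 and Rps23, so the member set is incomplete. Rps4y2 is an older name of the paralog Rps4l, but it was counted with the small subunit. Its locus in the L803mts table is 210000 bases long, 223 times the annotated gene. The authors' log2 fold change for it was −0.11 in L803mts (FDR 0.998) and −0.50 in ketamine libraries (FDR 0.9997). Alternatives changed pseudocount, filter, scaling, variance trend, locus choice and replicate block, and left out each library. Some member genes are not reported here by name.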

Additional observations from a re-analysis of the deposited data

How the results depend on the processing

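Limma called 0 ribosomal protein genes in each comparison under all 15 alternatives, and the lowest adjusted p of any member over them was 0.165 for siGSK3b, 0.529 for L803mts and 0.150 for ketamine libraries, each against control. Leaving out 1 library in turn gave medians of −0.13 to −0.063 for siGSK3b, −0.19 to −0.080 for L803mts and −0.085 to −0.021 for ketamine. Rplp1 changed sign without control replicate 2, to 0.0059 in L803mts libraries (adjusted p = 0.998) and 0.019 in ketamine libraries (adjusted p = 0.992); with 1 library left out its difference ran from −1.16 to 0.0059 and from −1.14 to 0.019. Of the other single-gene values, 1003 stayed within 1 SD of the spread between libraries and 11 moved further, all 11 low-level genes under a pseudocount of 0.1 or 5. At a looser FDR of 0.1 the authors' deposited table adds Rpl8 in siGSK3b libraries, for 3 members. Summing all loci of a name changed nothing, because no name had several.

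With the replicate number as a block, 0 members were called in each comparison, the medians stayed at −0.096, −0.12 and −0.047, and at an unadjusted p under 0.05 there were 0 higher and 7 lower members in siGSK3b, 1 and 4 in L803mts and 4 and 5 in ketamine libraries. The share of all tested loci at an unadjusted p under 0.05 was not computed for the block fit. The deviations of libraries of the same number had correlations of 0.011, −0.054 and −0.16 in the siGSK3b table. They were 0.013, 0.056 and 0.19 in the L803mts table and 0.11, 0.042 and 0.14 in the ketamine table. Libraries of different numbers gave −0.076 to 0.14 in the siGSK3b table, −0.26 to 0.19 in the L803mts table and −0.21 to 0.11 in the ketamine table. Same-number correlations were weak, though all above 0 in the L803mts and ketamine tables. The numbers were not taken as pairs.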
